A study of Mus musculus with 6 samples.

Results

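The genes described here encode the proteins of the mitochondrial ribosome. They were taken from the deposited gene tables by name: every symbol that starts with Mrpl or Mrps followed by a digit, which gave 77 of 24411 genes, 48 named Mrpl and 29 named Mrps. RNA was extracted from frozen testes of age-matched C57BL/6 mice, a standard inbred laboratory strain, and sequenced; no ages were given. Of the 6 libraries, 3 came from mice with the genotype MRP5-/- and MRP9-/- (labelled DKO, for double knockout) and 3 from mice labelled Wildtype (WT). MRP5 and MRP9 are membrane transporters of the ABCC family, encoded by Abcc5 and Abcc12, and share only an abbreviation with mitochondrial ribosomal proteins. The series asks what both transporters do in male reproduction and mitochondrial function; the design of the alleles is not given in the sources used here. In such bulk tissue, fewer cells of a type and less RNA per cell cannot be told apart.

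Mitochondria carry their own small genome and translate its messages, all of them for subunits of the oxidative phosphorylation complexes, on a ribosome of their own. Its ribosomal RNAs come from the mitochondrial genome, but its proteins are encoded in the nucleus, made in the cytosol and imported. Part of its proteins descend from bacterial ribosomal proteins while others were added in the mitochondrial lineage. In the testis, developing germ cells and the sperm midpiece both depend on mitochondria. Of the 77 genes, 50 encode proteins of the large subunit, where peptide bonds are formed (30 with a bacterial homologue and 20 specific to mitochondria). Another 26 encode proteins of the small subunit, which reads the messenger RNA (16 with a bacterial homologue and 10 specific to mitochondria). Names and places differ in a few cases: Mrps18a and Mrps30 are large-subunit proteins despite their names, and the remaining gene, Mrps36, encodes a protein now assigned to the oxoglutarate dehydrogenase complex.

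Depth and fragment length differed between the groups and bear on every value below. The libraries held between 42673615 and 67131103 expected counts in the labelled DKO group and between 26753721 and 31745969 in the labelled WT group. The mean length of the sequenced fragments, recovered from the deposited effective lengths, was 275 to 317 bases in libraries labelled DKO and 230 to 258 bases in those labelled WT. Neither quantity overlapped between the groups, so both went with the genotype. A longer mean fragment leaves fewer places to sample in a short transcript, which the deposited effective length takes into account. Each comparison was therefore made both without and with an offset built from the effective lengths. The targeted genes were checked first: Abcc12 was at 82.1, 82.4 and 72.6 CPM (counts scaled to library size) in the libraries labelled DKO and 165, 158 and 158 in those labelled WT (log2 fold change -1.02, edgeR adjusted p = 0.000307), while Abcc5 was at 17.03, 16.7 and 16.8 against 10.5, 12.3 and 11.4 CPM (log2 fold change 0.56, edgeR adjusted p = 0.0225). Abcc5 was thus higher, not lower, under the double knockout label, and gene totals cannot show a deleted exon, so each group is called by its label throughout. Among marker lists of testis cells, the summed TPM of 10 Sertoli cell genes was 1542 to 1840 in libraries labelled DKO and 1955 to 2484 in those labelled WT, that of 8 spermatocyte genes 832 to 1035 against 745 to 799, and that of 8 Leydig cell genes 864 to 1521 against 1499 to 3146. Of these lists edgeR called 3 of 10 lower, 2 of 8 higher and 3 of 8 lower, and 0 of their genes were at 0 in all libraries. In the lists of 7 spermatogonia, 6 peritubular and endothelial and 5 macrophage genes it called 0. Of 12 spermatid genes it called 1 lower and 1 higher. The summed TPM of the Leydig cell genes and of each of these other lists overlapped between the groups, with spermatid genes at 113548 to 123767 against 106128 to 116383. The part of all such differences in the results below was not tested.

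All 77 genes were expressed and passed the filter on low counts. On the TPM scale, which divides by effective length and so allows comparison between genes, their mean levels over 6 libraries ran from 2.93 for Mrpl19 to 324 for Mrpl20, with a median of 33.1 against 8.51 over all 17110 tested genes. Of the 77, 73 were at 10 TPM or more. The highest level belonged to Mrpl20, which encodes the homologue of bacterial L20, an early rRNA-binding protein of the large subunit; it was at 283, 302 and 343 TPM in libraries labelled DKO and 329, 347 and 339 TPM in those labelled WT, and the groups overlapped. Next came Mrpl54, a mitochondria-specific large-subunit gene, at 273, 254 and 276 TPM in libraries labelled DKO and 223, 199 and 228 TPM in those labelled WT. These groups did not overlap, with all libraries labelled DKO higher. Mrpl52, another mitochondria-specific gene, followed; its libraries labelled DKO lay at 159, 145 and 195 TPM and those labelled WT at 157, 163 and 163 TPM, with overlap. The ranges of Mrpl20 and Mrpl54 over the 6 libraries did not meet, and neither did those of Mrpl54 and Mrpl52. The 10 genes with the highest mean TPM held 38.9% of the family's summed TPM, and 9 of these 10 are large-subunit genes, the other being Mrps36. At the other end, Mrpl19 (the homologue of bacterial L19) and Mrpl17 (of L17) stayed at 2.81 to 3.09 and 3.10 to 4.45 TPM over the 6 libraries, and Mrpl17 has the longest transcript of the family, at 6712 bases. The highest and the lowest mean level differed 110-fold.

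**Figure D1:**
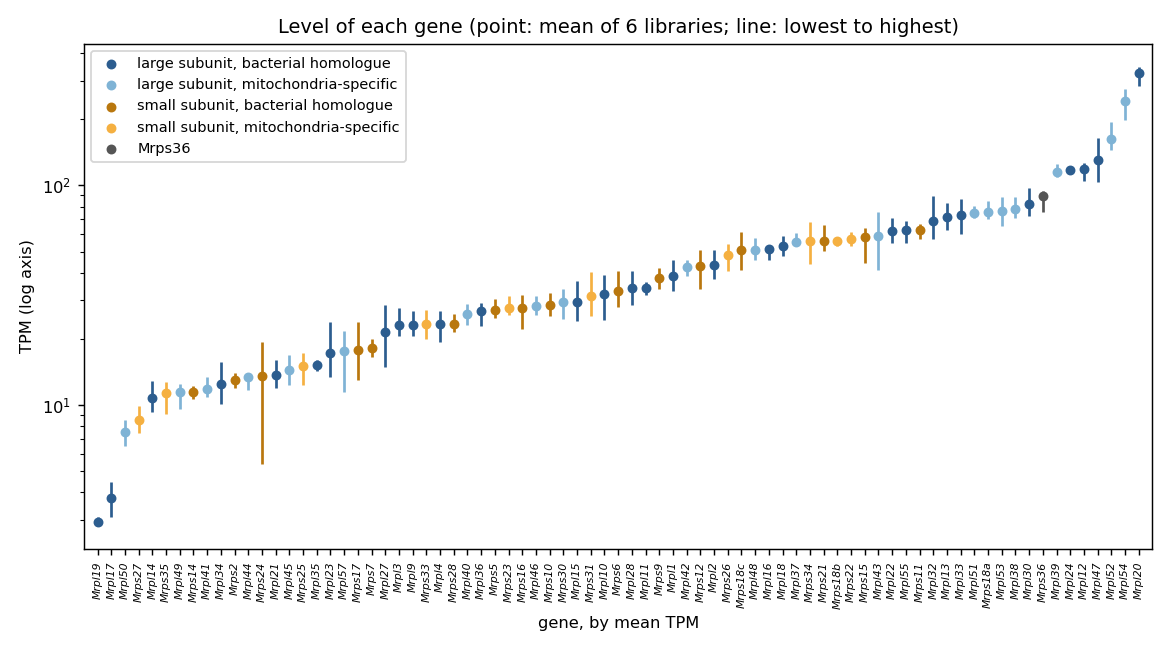
Mean TPM of each of the 77 genes (log axis), ordered by level, with a line from the lowest to the highest of the 6 libraries and colours for the subunit and the ancestry of the protein. Mrpl20, Mrpl54 and Mrpl52 stand highest and Mrpl17 and Mrpl19 lowest, and the line of Mrps24 is among the longest.

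The family's summed level overlapped between the groups. It was 3753, 3614 and 3935 TPM in libraries labelled DKO and 3652, 3850 and 3766 TPM in those labelled WT, which overlap. The large-subunit genes summed to 2844 ± 150 TPM in libraries labelled DKO and 2788 ± 59.2 TPM in those labelled WT (SD, n = 3 each), again with overlap. For the small-subunit genes the sums were 831 ± 14.9 and 882 ± 43.3 TPM (SD, n = 3 each), and 1 library of the labelled WT group, at 835 TPM, lay within the range of the labelled DKO group. The ratio of large-subunit to small-subunit messages was 3.36, 3.33 and 3.58 in libraries labelled DKO and 3.26, 3.09 and 3.15 in those labelled WT. No library labelled WT reached the lowest ratio of the labelled DKO group, although the gap between the nearest libraries was small.

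Single genes of the family were called in both directions, more of them lower than higher in the libraries labelled DKO. By the edgeR quasi-likelihood test without offset, 14 of 77 were called lower and 3 higher at an adjusted p under 0.05, beside 5.1% and 5.75% of all 17110 tested genes, or 10.8% in either direction. Those counts are 18.2% and 3.90% of the family. Its median log2 fold change was -0.04, with 42 values below 0 and 35 above, beside a median of -0.0042 over all tested genes. An unadjusted p under 0.05 was reached by 30 of the 77, beside 31.7% of all tested genes. Of the CPM values, 24 genes had all libraries labelled DKO below all libraries labelled WT and 19 had them all above, which is 31.2% and 24.7% of the family beside 17.5% and 18.4% of all tested genes (55.8% beside 35.9% in either direction). In TPM, 17 genes were lower and 12 higher without overlap, which is 22.1% and 15.6% beside 18.2% and 15% of all tested genes (37.7% beside 33.2% in either direction). DESeq2 called 15 lower and 5 higher, beside 7.59% and 9.61% (17.2% in either direction), and limma on log2(TPM + 1) called 8 and 4, beside 2.67% and 1.63% (4.3% in either direction). By subunit, 8 of 50 large-subunit genes were called lower and 2 higher, and 6 of 26 small-subunit genes were called lower and 1 higher; the difference between the subunits was not tested. By ancestry, 9 of 46 genes with a bacterial homologue were called lower and 2 higher, against 5 and 1 of 30 mitochondria-specific genes. The calls depended on single libraries: without DKO replicate 1, WT replicate 2 or WT replicate 3, edgeR called none of the 77 genes (24, 23 and 27 had an unadjusted p under 0.05), beside 11, 13 and 7 genes called over the whole table. With each library's mean fragment length as a covariate, edgeR again called 0 members (2 at an unadjusted p under 0.05) and 1 gene over the whole table, Abcc12. Fragment length did not overlap between the groups, so that fit can hardly tell it from genotype, and loss of a call there says little. The largest single change was that of Mrps24, and 1 of the 77 genes and 89 of all tested genes were at a log2 fold change of -1 or lower.

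The gene Mrps24 encodes the homologue of bacterial S3, a small-subunit protein at the entry of the messenger RNA channel (chr11:5703982-5707701 in build GRCm38.p6, minus strand). It had 3.94, 6.23 and 2.63 CPM in the libraries labelled DKO and 8.99, 9.43 and 9.86 CPM in those labelled WT. Every library labelled DKO was below every library labelled WT, but they also differed among themselves, with DKO replicate 3 lowest and DKO replicate 2 highest. Its log2 fold change was -1.17 (SE 0.234; edgeR adjusted p = 0.0263), and its mean CPM under the DKO label was 45.3% of that under the WT label. Without DKO replicate 2 the log2 fold change was -1.55 and without DKO replicate 3 it was -0.89. Per length, its level was 8.43 ± 3.31 TPM against 18.6 ± 1.19 TPM (SD, n = 3 each).

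Another 5 of the 14 lower genes encode small-subunit proteins. The message of Mrps12, homologue of the bacterial S12 protein of the decoding centre, was at 8.91, 10.95 and 10.3 CPM in libraries labelled DKO and 14.4, 13.9 and 14.9 CPM in those labelled WT, and edgeR gave a log2 fold change of -0.52 (SE 0.0993, adjusted p = 0.0253). For Mrps34, a mitochondria-specific protein needed for small-subunit stability, the libraries labelled DKO were at 18.6, 23.02 and 18.3 CPM and those labelled WT at 27.8, 28.6 and 27.8 CPM (log2 fold change -0.49, SE 0.0974, edgeR adjusted p = 0.0255). In both genes the gap between the groups was larger than the range of the libraries labelled WT. Mrps17, homologue of bacterial S17, had 8.19, 10.8 and 9.36 CPM against 12.4, 14.5 and 12.5 CPM and a log2 fold change of -0.48. Mrps21, homologue of bacterial S21 and the shortest transcript of the family at 407.0 bases, had 4.44, 5.18 and 5.23 CPM against 6.07, 7.70 and 6.59 CPM and a log2 fold change of -0.46. In Mrps17 and Mrps21 the gap between the groups was smaller than the spread within the labelled WT group. The last of them, Mrps26, a mitochondria-specific protein, had a log2 fold change of -0.30, close to the threshold (edgeR adjusted p = 0.0492).

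Large-subunit genes made up the other 8. Mrpl43, a mitochondria-specific protein, had 26.5, 35.6 and 31.4 CPM in libraries labelled DKO and 41.1, 46.8 and 45.1 CPM in those labelled WT (log2 fold change -0.51, SE 0.104, edgeR adjusted p = 0.0263). Mrpl57, also without a bacterial homologue, had 16.4, 23.99 and 19.2 CPM against 29.3, 28.7 and 30.2 CPM (log2 fold change -0.57, SE 0.119, edgeR adjusted p = 0.0271). Both were lowest in DKO replicate 1 and, within the labelled DKO group, highest in DKO replicate 2. Mrpl27, whose bacterial homologue reaches towards the peptidyl transferase centre, had 4.42, 6.18 and 5.70 CPM against 7.06, 8.95 and 8.40 CPM and a log2 fold change of -0.58. Mrpl10, the homologue of the L10 protein that anchors the stalk where translation factors bind, had 23.8, 31.2 and 24.9 CPM against 34.4, 33.996 and 37.5 CPM and a log2 fold change of -0.41. These 2 genes did not overlap between groups either, with DKO replicate 2 nearest to the libraries labelled WT. The remaining 4 were Mrpl53 (log2 fold change -0.38), Mrpl28 (-0.32), Mrpl4 (-0.31) and Mrpl23 (-0.54), of which Mrpl4 and Mrpl23 encode homologues of proteins that line the bacterial exit tunnel. Among the 14 lower genes, DKO replicate 1 was the lowest library for 10, and DKO replicate 2 was the highest of its group for 11. The 3 genes Mrps26, Mrpl4 and Mrpl23 are named because they complete the 14, after their values were seen.

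Only 3 genes of the family were called higher without offset. Mrps31, a mitochondria-specific small-subunit protein, had 35.3, 29.4 and 29.9 CPM in libraries labelled DKO and 24.6, 20.95 and 23.5 CPM in those labelled WT, and edgeR gave a log2 fold change of 0.45 (SE 0.0961, adjusted p = 0.0271). Mrpl47, homologue of the L29 protein at the rim of the bacterial exit tunnel, had 61.5, 56.2 and 66.3 CPM against 51.1, 41.97 and 46.6 CPM (log2 fold change 0.40, SE 0.0901, edgeR adjusted p = 0.0301). Mrpl1, homologue of the mobile L1 stalk protein near the tRNA exit site, had 59.6, 51.6 and 50.8 CPM against 45.9, 38.3 and 42.7 CPM (log2 fold change 0.35, SE 0.0901, edgeR adjusted p = 0.0373). In all 3 the lowest library labelled DKO was above the highest labelled WT, and the lowest of the 6 was WT replicate 2. Exons of Mrpl47 lie opposite those of Actl6a and Ndufb5, those of Mrpl27 opposite Eme1 and those of Mrps26 opposite 4930473A02Rik. How strand was handled is not given in the sources used here. The expected counts of Mrpl47, Mrpl27 and Mrps26 were whole in every library, and whether any of their fragments came from the opposite gene was not tested.

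**Figure D2:**
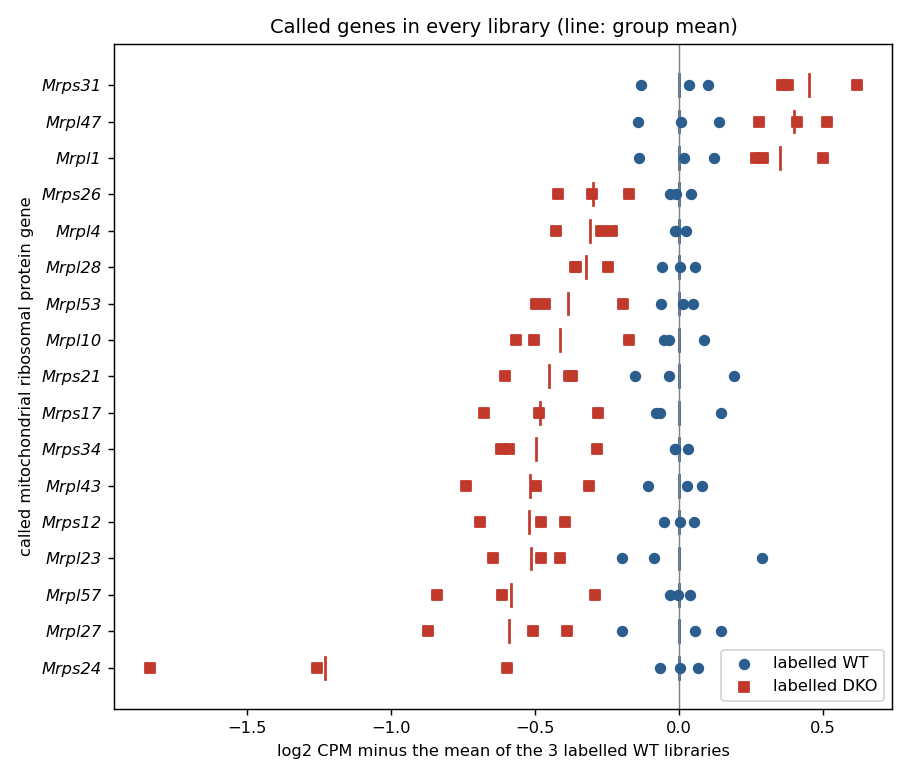
The 17 called genes, each with its 6 libraries as log2 CPM minus the mean of the 3 libraries labelled WT (circles WT, squares DKO, short lines group means). The 14 lower genes lie left of the labelled WT libraries, Mrps24 farthest, and Mrps31, Mrpl47 and Mrpl1 lie to their right.

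Promoter sequences from RefSeq (build GRCm38.p6, which is mm10, the build in the submitters' processing notes) were found for 68 of the 77 genes, 12 of the 14 lower and all 3 higher ones. In windows from 250 bases before to 50 bases after each annotated start, exact matches on either strand were sought to CCGGAAGT (bound by ETS factors such as GABPA, a known regulator of nuclear genes for mitochondrial proteins) and to the consensus motifs of NRF1, another such regulator, and YY1; matches of different motifs may overlap. The ETS motif stood in 12 of 68 genes (17.6%), beside 7.38% of 12876 tested genes with a window and 3.89% of all 32851 windows. The NRF1 motif stood in 3 and the YY1 motif in 5 of the 68, beside 1.92% and 1.43% of the tested genes. Of the 12 lower genes with a window, the ETS motif was found in Mrpl27, Mrpl43 and Mrps26, and neither of the other motifs in any; the 3 higher genes had none of the 3. The 120 bases before the start are shown for these 3 lower genes, for the gene with the largest decrease and for 1 that was higher, 5′ to 3′ along the gene, with motif matches in capitals (in Mrps26 on the opposite strand).
Mrpl27: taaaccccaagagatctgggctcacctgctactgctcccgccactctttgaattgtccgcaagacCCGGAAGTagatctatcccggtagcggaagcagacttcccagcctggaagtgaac
Mrpl43: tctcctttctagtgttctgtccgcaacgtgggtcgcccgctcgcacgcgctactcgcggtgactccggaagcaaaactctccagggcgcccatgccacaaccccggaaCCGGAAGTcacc
Mrps26: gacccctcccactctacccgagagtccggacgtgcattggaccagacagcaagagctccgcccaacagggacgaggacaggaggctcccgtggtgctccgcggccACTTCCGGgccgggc
Mrps24: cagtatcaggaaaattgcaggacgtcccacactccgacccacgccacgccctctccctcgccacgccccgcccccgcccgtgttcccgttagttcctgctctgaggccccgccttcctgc
Mrpl47: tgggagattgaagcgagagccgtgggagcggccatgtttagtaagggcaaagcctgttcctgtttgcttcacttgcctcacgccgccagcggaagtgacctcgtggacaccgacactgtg
They lie at chr11:94653671-94653790 on the plus strand (Mrpl27), chr19:45006443-45006562 on the minus strand (Mrpl43), chr2:130563637-130563756 on the plus strand (Mrps26), chr11:5707702-5707821 on the minus strand (Mrps24) and chr3:32736756-32736875 on the minus strand (Mrpl47). The ETS match begins 55 bases before the start in Mrpl27, 12 in Mrpl43 and 15 in Mrps26. The end of the Mrpl27 stretch overlaps the annotated span of the gene. Absence of these letters says nothing about the factors themselves.

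Transcripts of this family are short, with a median deposited length of 1043.0 bases against 2623 over all tested genes, and their fold changes varied with length. Of 14 members under 700 bases, 4 were called lower and 0 higher without offset, with a median log2 fold change of -0.23; among all 731 tested genes of that length the median was -0.21, and 22.2% were called lower and 4.92% higher. Between 700 and 1000 bases the 19 members had a median of -0.09 and the 1061 tested genes one of -0.10. Of these members 3 were called lower and 1 higher, and of these tested genes 11.2% and 3.68%. From 1000 to 1500 bases 5 of 22 members were called lower and 0 higher, at a median of -0.03. Of 2009 tested genes of that length, 8.51% were called lower and 5.38% higher, at a median of -0.07. In the 22 members of 1500 bases or more the median was 0.05, beside 0.02 in 13309 tested genes. Of these members 2 were called lower and 2 higher (9.09% each), and of these tested genes 3.16% and 6.02%. In each of the 4 length classes the median of the members thus lay on the same side of 0 as that of all genes. Across the 77 members, which share libraries and are not independent, Spearman's rho between log2 fold change and length was 0.24 without offset and 0.02 with it.

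**Figure D3:**
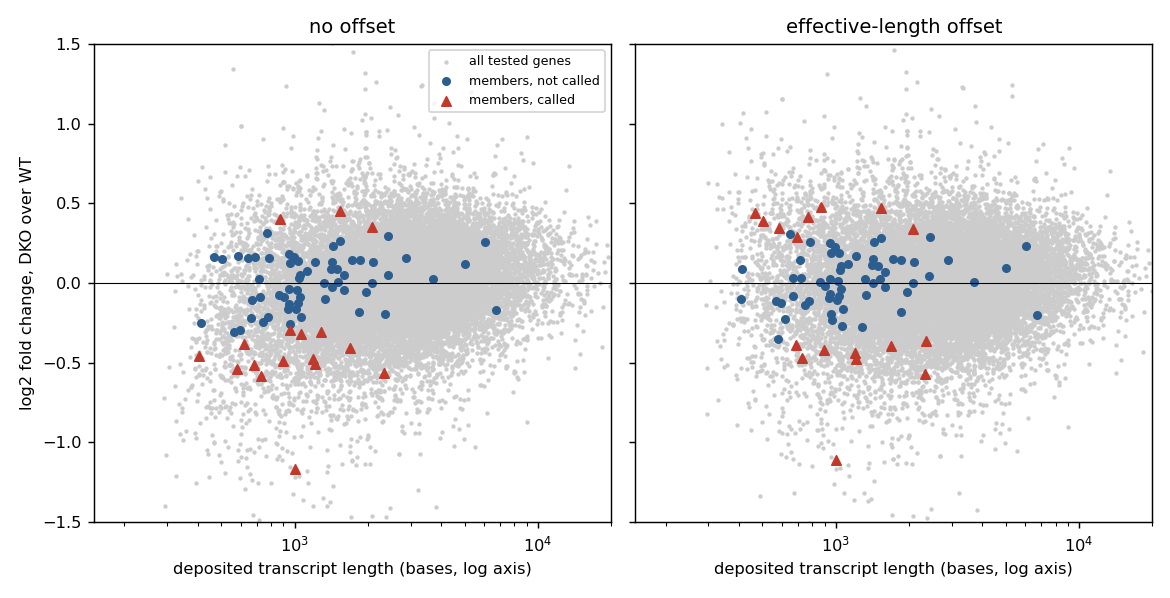
Log2 fold change (DKO over WT) against deposited transcript length (log axis) for all tested genes (grey), members not called (circles) and members called (triangles), without offset on the left and with the effective-length offset on the right. Without offset most triangles of short genes lie below 0; with it, called short genes lie on both sides.

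With the effective-length offset, the count of members called stayed at 17 but the genes differed. There were 9 lower and 8 higher, beside 4.12% and 5.59% of all tested genes (9.71% in either direction), and the median of the family was 0.02 beside -0.0024 over all tested genes. The log2 fold change rose for 66 of the 77 genes, by up to 0.35. Called lower in both fits were 8 genes, namely Mrps24 (-1.11 with the offset), Mrpl57 (-0.57), Mrpl43 (-0.47), Mrpl27 (-0.47), Mrps17 (-0.44), Mrps34 (-0.42), Mrpl10 (-0.40) and Mrps12 (-0.39), and called higher in both were Mrpl47 (0.48), Mrps31 (0.47) and Mrpl1 (0.34). No longer called were Mrpl23, Mrpl28, Mrpl4, Mrpl53, Mrps21 and Mrps26. Of these Mrps21 moved most, from -0.46 to -0.10 (edgeR adjusted p = 0.550 with the offset; range over 14 alternatives that kept all libraries 0.0216 to 0.999), and in TPM its groups overlapped, at 52.6, 50.5 and 56.03 against 53.1, 66.3 and 57.02. With the offset, too, edgeR called 0 members without DKO replicate 1, WT replicate 2 or WT replicate 3 (27, 26 and 30 at an unadjusted p under 0.05), beside 9, 14 and 5 genes called over the whole table.

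New among the higher calls with the offset were Mrpl33, Mrpl32, Mrps18c, Mrpl54 and Mrpl30, of which Mrpl32 and Mrpl30 are named for that call. All 5 are under 800 bases. Higher calls also rose with the offset among all tested genes of such lengths. Under 700 bases they went from 36 to 88 of 731 tested genes, and from 0 to 4 of 14 members. Between 700 and 1000 bases they went from 39 to 78 of 1061 tested genes, and from 1 to 2 of 19 members. Whether the members differed in this from other short genes was not tested. Mrpl33, the homologue of the small bacterial L33 protein, has 466 bases and was at 86.9, 74.9 and 86.8 TPM in libraries labelled DKO and 65.6, 60.2 and 63.4 TPM in those labelled WT. Its log2 fold change was 0.16 without and 0.44 with the offset. Mrpl32, a large-subunit protein that is cut by a mitochondrial protease before assembly, was at 89.1, 71.96 and 73.1 TPM against 61.4, 56.7 and 62.5 TPM, and its log2 fold change went from 0.31 to 0.42. Both had no overlap between groups in TPM. For Mrpl54 the values were 0.17 and 0.35, and for Mrpl30 0.16 and 0.29. The short Mrpl52, at 412 bases, had -0.25 without and 0.09 with the offset, neither past the threshold.

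**Figure D4:**
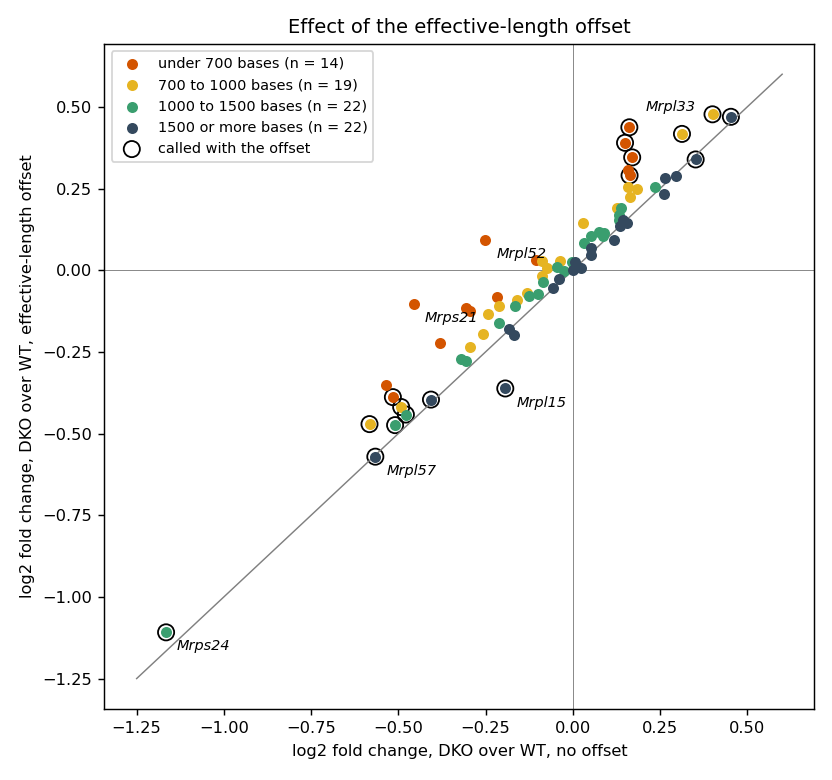
Log2 fold change (DKO over WT) of each of the 77 genes without offset (horizontal) and with the effective-length offset (vertical), coloured by length class; rings mark genes called with the offset and the diagonal marks equal values. Genes under 700 bases lie above the diagonal, Mrpl15 lies below it, and Mrps24 and Mrpl57 stay near it.

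The 3 genes named after bacterial S18, of which Mrps18a and Mrps18b are counted above as mitochondria-specific and Mrps18c as having a bacterial homologue, differed in length and in what the offset did to them. Mrps18a, in the large subunit, had 28.2, 29.5 and 32.5 CPM in libraries labelled DKO and 30.5, 33.996 and 30.5 CPM in those labelled WT, with overlap (log2 fold change -0.07). Mrps18b had 28.1, 29.5 and 29.6 against 32.1, 30.1 and 30.5 CPM (log2 fold change -0.09), a narrow separation in which all libraries labelled DKO were lower. Mrps18c, the shortest of the 3 at 502 bases, had 8.19, 8.20 and 9.44 against 7.17, 7.94 and 8.21 CPM, which overlap (log2 fold change 0.15), and 58.1, 50.4 and 61.4 against 41.03, 45.7 and 46.97 TPM, which do not. Without offset none of the 3 was called; with it Mrps18c was called higher (0.39), while Mrps18a had 0.01 ± 0.0773 (SE) and Mrps18b -0.04 ± 0.0720 (SE).

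RSEM's length column weights a gene's transcripts by their estimated abundances, so it can also show a change in the mix of transcripts. Of the 77 genes, 68 have 1 annotated transcript and a fixed length, and 9 have several. None of the 9 was called for a length difference by limma (robust fit on log2 length; 2 at an unadjusted p under 0.05; 0 also without the robust fit), beside 0.0224% of 4458 tested genes. In 2 of the 9, Mrpl15 and Mrps33, all libraries labelled DKO had a longer mean transcript than all labelled WT, beside 8.88% of those 4458 genes, and 0 of the 9 had a shorter one, beside 7.87% (16.8% in either direction). For Mrps33 the difference was between 1036 and 1032 bases. For Mrpl15, the homologue of bacterial L15, the length was 2534, 2402 and 2460 bases in libraries labelled DKO and 2286, 2155 and 2250 bases in those labelled WT, a log2 difference of 0.14 (SE 0.0322; limma adjusted p = 0.294).

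Mrpl15 was the 1 gene called lower with the offset and not without it. Its CPM was 38.3, 40.5 and 37.3 in libraries labelled DKO and 44.1, 44.4 and 44.3 in those labelled WT. Its TPM was 24.2, 26.4 and 25.4 against 31.3, 36.6 and 33.2. On both scales all libraries labelled DKO were lower. Without offset the log2 fold change was -0.19 (SE 0.0689; edgeR adjusted p = 0.0828) and with it -0.36 (SE 0.0750; edgeR adjusted p = 0.0299; range over 14 alternatives that kept all libraries 0.0299 to 0.999). The offset moved this gene away from 0 through its longer effective length under the DKO label, and the length difference itself did not pass the test.

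**Figure D5:**
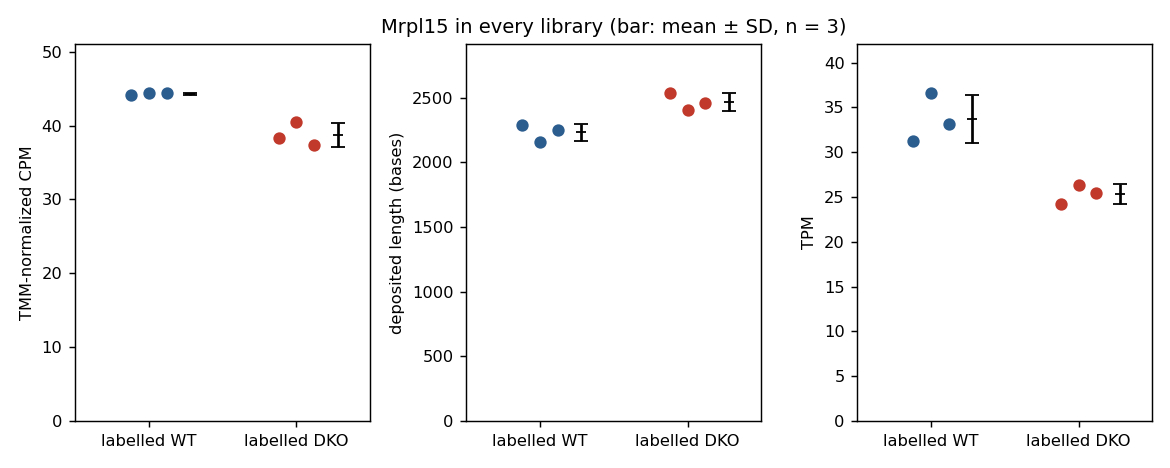
Mrpl15 in the 3 libraries labelled WT and the 3 labelled DKO, as CPM, as deposited abundance-weighted length in bases and as TPM, with mean ± SD (n = 3) beside the points; all axes start at 0. The libraries labelled DKO are lower in CPM and TPM and longer in length, without overlap.

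GC content of the transcripts also went with the fold changes. Across the 77 members Spearman's rho between log2 fold change and GC content was -0.38 without offset and -0.30 with the effective-length offset, and the median GC content was 53.2% in the 14 lower genes, 44.2% in the 3 higher ones and 50.9% in the family. With each library's smooth trend on length alone removed, 8 members were called lower and 11 higher, beside 3.94% and 6.06% of all tested genes (10% in either direction). With the trends on length and GC content removed, 3 members were called lower and 4 higher, beside 1.12% and 1.74% of all tested genes (2.86% in either direction). The lower ones were Mrpl57 (-0.76), Mrpl43 (-0.41) and Mrpl15 (-0.30), and the higher ones Mrpl54 (0.58), Mrpl47 (0.39), Mrps31 (0.33) and Mrpl38 (0.34), the last named for this call. The other 7 genes called both without and with the effective-length offset did not pass the threshold in that fit. Among them Mrps24 had -0.96, Mrps17 -0.46, Mrpl27 -0.42 and Mrpl10 -0.32. The values of Mrps12 (-0.17), Mrps34 (-0.17) and Mrpl1 (0.10) were nearer to 0, where those without offset were -0.52, -0.49 and 0.35. Thus 4 genes, Mrpl43 and Mrpl57 lower and Mrps31 and Mrpl47 higher, were called without offset, with the effective-length offset and with both trends removed. All these fits used the same 6 libraries. Without offset, these genes too lost their calls without DKO replicate 1, WT replicate 2 or WT replicate 3. They also lost them with fragment length as a covariate, a fit that can hardly tell fragment length from genotype.

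Genes that work with this ribosome under other names were called about as often as genes in general, or less: 0 of 6 further ribosomal proteins, 12.5% of 16 translation factors and messenger RNA handling proteins, 5% of 20 synthetase and amidotransferase genes and 12% of 25 assembly and rRNA modification genes, beside 10.8% of all tested genes without offset. For the 6 ribosomal proteins (Dap3, Ptcd3, Chchd1, Aurkaip1, Gadd45gip1 and Ict1), edgeR called 0 without offset (3 at an unadjusted p under 0.05). Among 16 translation factors and messenger RNA handling proteins, Slirp, which protects mitochondrial messages together with Lrpprc, was lower at 31.3, 38.8 and 32.8 CPM against 46.1, 55.1 and 52.03 CPM (log2 fold change -0.58). The initiation factor gene Mtif2 was higher, at 36.4, 30.9 and 28.4 against 23.8, 23.2 and 26.02 CPM (log2 fold change 0.39). With the offset Slirp was not called (-0.24) and Mtif2 was (0.37); with the length and GC trends removed Slirp was (-0.47) and Mtif2 was not (0.21). Of 20 mitochondrial aminoacyl-tRNA synthetase and amidotransferase genes, 1 was called lower, Vars2 for valine (log2 fold change -0.35), and 0 higher. Among 25 genes for assembly and rRNA modification, Nsun4, an rRNA methyltransferase, was lower (-0.32), and Mterf3, a regulator of mitochondrial transcription and ribosome assembly, and Gtpbp10, a large-subunit assembly GTPase, were higher (0.42 and 0.39). With the offset, Vars2, Nsun4 and Mterf3 were called in the same direction and Gtpbp10 was not called (0.37). With the length and GC trends removed only Nsun4 of these 4 was called (-0.37), and Vars2 (-0.17), Mterf3 (0.25) and Gtpbp10 (0.09) were not.

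Medians and called shares of other families of short nuclear transcripts are set beside those of the mitochondrial ribosomal genes as a description. The differences were not tested. The 95 tested genes named as cytosolic ribosomal proteins (median length 733 bases) had a median log2 fold change of -0.18 without offset, -0.05 with it, -0.04 with the length trend removed and -0.04 with both trends removed. The 37 tested complex I subunit genes (median length 641 bases) had medians of -0.21, -0.09, -0.07 and -0.0083 in the same 4 fits. For the 77 mitochondrial ribosomal genes, which are longer, these medians were -0.04, 0.02, 0.05 and 0.06. Their median was thus nearest to 0 of the 3 families without offset and with it, but not with the length trend or both trends removed. Without offset, edgeR called 31 of the 95 cytosolic ribosomal genes lower (32.6%) and 4 higher. Of the 37 complex I genes it called 12 lower (32.4%) and 0 higher. For the 77 mitochondrial ribosomal genes these counts were 14 (18.2%) and 3. With the offset, the lower shares were 17.9%, 18.9% and 11.7% in the same order, and 10, 1 and 8 genes were called higher. The share called lower was thus smallest in the mitochondrial ribosomal genes in both fits.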

How the data were processed

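Testis RNA was sequenced in 6 libraries. Per the submitters' processing notes, STAR 2.7.0f, RSEM 1.2.31, DESeq2 1.12.3 and build mm10 were used, with no roles given; annotation release, strand handling and filters are not given in the sources used here. Per the file headers, each deposited file is RSEM gene-level output for 1 library. Expected counts, as the authors deposited them, were whole in 93.2% of values and were rounded here. TPM, also deposited, divides by effective length and has a common total. Deposited lengths weight transcripts by abundance. FPKM was not used.

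Genes were kept by filterByExpr (17110 of 24411) and tested with TMM and the edgeR 4.0.16 quasi-likelihood test in R 4.3.3, genotype the only term, with Benjamini-Hochberg adjustment over all tested genes and calls at an adjusted p under 0.05. SE is the absolute log2 fold change over the square root of F. Fold changes compare the DKO label with WT. CPM are TMM-normalized. The effective-length offset follows the deposited effective lengths relative to each gene's mean. Trends were fitted with mgcv 1.9-3, GC content came from GENCODE M21 transcripts (98.4% of tested genes), and lengths were tested with limma 3.58.1. DESeq2 1.42.0 was an alternative. Mean fragment length was recovered from the gap between length and effective length in genes above 3000 bases. Replicates were numbered in order of deposition and taken as separate mice, as the series' text implies. The p-values set the difference between the labels against the spread between these libraries, and depth and fragment length went with the label. Genes were named by rule: the 14 called members with the smallest p, all called higher, up to 10 called lower with the offset, the 3 highest in TPM, the 3 shortest and 3 longest, the S18 family, members with a called length difference or failing the filter (none), 3 with the most fractional counts, and up to 3 called genes of each pathway list. The members, gene lists and tests were chosen with earlier results of these data known. Fragments that match more than 1 gene could be split: Mrpl19, Mrpl24, Mrpl41 and Mrps25 carried fractional counts. Exons of Mrpl19, Mrpl24 and Mrps25 overlap those of Gcfc2, Rrnad1 and Nr2c2 on the opposite strand, and no overlap was found for Mrpl41. Which genes shared the fragments was not tested. The code was tested on simulated data.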

Additional observations from a re-analysis of the deposited data

How the results depend on the processing

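The counts of 14 lower and 3 higher members stayed within 1.5 times under DESeq2 size factors, limma-voom, a mean count of at least 50, unrounded counts and thinning. Lower and higher members numbered 9 and 8 with the effective-length offset and 8 and 11 with the length trend removed. They numbered 0 and 0 with fragment length as a covariate (2 at an unadjusted p under 0.05), a fit that can hardly tell genotype from fragment length. At an adjusted p under 0.01 they were 0 and 0 too. Over the whole table, the covariate left 1 gene called and the stricter threshold 7. With length and GC trends removed 3 were lower; on log2(TPM + 1) 8 were lower. DESeq2, the fit with no count filter and log2(TPM + 0.1) each called 5 higher, beside 2943, 2321 and 947 genes called over the whole table. The edgeR fit without offset called 1856. Leaving out 1 library gave 0 to 16 lower and 0 to 5 higher. With the effective-length offset as well, a combination chosen after seeing the data, it gave 0 to 10 and 0 to 8 (6 higher without WT replicate 1). The highest of these counts came without DKO replicate 3, beside 3029 genes called over the whole table and 2774 with the offset. The fits with 0 members called had 7 to 13 genes called over the whole table, and 5 to 14 with the offset.

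The family median, -0.04 without offset, was 0.0241 with the effective-length offset, 0.0499 with the length trend removed, 0.0589 with length and GC trends removed, 0.0352 with the covariate and -0.0106 after thinning. It lay between -0.0596 and -0.0234 without 1 library, and between -0.0173 and 0.0353 with the offset as well (0.0048, 0.019 and -0.0039 without DKO replicates 1, 2 and 3, and 0.0003 without WT replicate 2).

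Abcc12 stayed called in the 14 alternatives and without each library. Abcc5 was not called on log2(TPM + 1) (0.27), on log2(TPM + 0.1) (0.33), with the covariate (0.64) or at an adjusted p under 0.01 (0.56), and ranged from 0.49 to 0.61 without 1 library, losing its call without DKO replicate 1, WT replicate 2 or WT replicate 3 (edgeR adjusted p = 0.0980, 0.0562 and 0.0993). None of the 17 called members changed direction in these alternatives. Of all 77 members, none of the 17 among them, signs turned for 7 with the effective-length offset, 13 with the length trend removed, 19 with both trends removed, 19 with the covariate and 4 on log2(TPM + 1). Among the members named by rule these were Mrpl52 (effective-length offset 0.0911, length trend 0.0384, both trends 0.21, log2(TPM + 1) 0.0345, log2(TPM + 0.1) 0.0346, covariate 0.12), Mrps18a (offset 0.0058, length trend 0.0382, both trends 0.18, covariate 0.17), Mrpl24 (offset 0.0275, length trend 0.0642, both trends 0.0276), Mrps18b (length trend 0.0047, both trends 0.0577), and with the covariate Mrpl20 (0.0774) and Mrpl17 (0.0486). The cause was not tested. No paired analysis was possible because the labels give the groups no shared replicate numbers.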
